A study of Homo sapiens with 18 samples.

Results

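The immediate early transcription factor genes FOS, FOSL1, JUN, EGR1 and ATF3, the early response gene IER3 and the MAP kinase phosphatase genes DUSP1, DUSP4, DUSP5 and DUSP6 were followed by RNAseq after transfection of MIR-28 family microRNA mimics. The 10 genes were chosen by symbol, with earlier results of these data known. All 10 were listed and passed the filter on low values in both cell lines, out of 15358 genes listed for MCF10A and 15257 listed for RPE-1. MCF10A is a human breast epithelial cell line, and hTERT RPE-1 is a human retinal pigment epithelial cell line carrying a telomerase transgene. The authors grew MCF10A in horse serum with added insulin, hydrocortisone, epidermal growth factor and cholera toxin, and RPE-1 in fetal bovine serum. In each line, 3 libraries came from cells given a non-targeting siRNA (siNT), 3 from cells given the hsa-miR-28-5p mimic (miR-28) and 3 from cells given the hsa-miR-708-5p mimic (miR-708). All 18 cultures received 30 nM of RNA for 72 h, and the replicates were numbered 7, 8 and 9 in MCF10A and 1, 2 and 3 in RPE-1. No untransfected cells were analysed here, so every change is relative to siNT, and each line stands for its tissue by a single established line.

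Immediate early genes are transcribed within minutes of a growth factor or stress signal, mainly through the ERK, JNK and p38 MAP kinases, and without new protein synthesis. FOS and JUN family proteins pair to form the AP-1 transcription factor, EGR1 is a zinc finger transcription factor, and ATF3 is a stress-induced member of the ATF/CREB family. The DUSP phosphatases remove the activating phosphates from MAP kinases, so that their induction by the same signals closes a negative feedback loop.

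The mature sequence of hsa-miR-708-5p is shown because its seed (bases 2 to 8, in capitals), which hsa-miR-28-5p shares, sets the sites that were looked for in the 10 genes. It lies at chr11:79402077-79402099 on the minus strand (RefSeq, GRCh38.p14).
hsa-miR-708-5p: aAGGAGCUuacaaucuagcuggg
The site matching the whole seed reads AGCTCCT (7mer-m8), and GCTCCTA (7mer-A1) and GCTCCT (6mer) match it in part. Canonical GENCODE 44 transcripts on hg38 were searched on their sense strand. A 3′UTR site of at least 7 bases was present in 2 of the 10 genes, DUSP4 and IER3, and in 18.7% of the 13775 genes tested in either line with an annotated 3′UTR. Sites of any kind were present in the 3′UTR of 3 of the 10 genes, the third being DUSP1 with a 6mer, and in 35.8% of the 13775. Coding sequence sites of 7 bases were present in 3 genes, DUSP1, DUSP4 and DUSP5, and FOS had a 7mer-A1 in its 5′UTR. How many of all genes hold such coding or 5′UTR sites was not counted, so these sites have no background. No site of any of these kinds was found in the transcripts of DUSP6, FOSL1, JUN or ATF3, and EGR1 held only a coding 6mer. The sites of IER3 (3′UTR in exon 2, chr6:30743676-30743682), DUSP1 (3′UTR in exon 4, chr5:172768711-172768716, and coding sequence in exon 3, chr5:172769602-172769608) and DUSP5 (coding sequence in exon 4, chr10:110510197-110510203) are given in capitals with their flanks. They are the longest 3′UTR or coding sites of genes that moved in RPE-1 cells, with the 3′UTR 6mer of DUSP1. DUSP4, which moved there too, has a 7mer-m8 and a 6mer in its 3′UTR and 2 coding 7mer-m8 sites, which are not printed. The 5′UTR 7mer-A1 of FOS, which was higher there with miR-28, is not printed either. IER3 and DUSP1 are on the minus strand and DUSP5 is on the plus strand.
IER3, 3′UTR 7mer-A1: gttaatttatttcttattGCTCCTAattaa
DUSP1, 3′UTR 6mer: catcccattgggactccatGCTCCTtgaga
DUSP1, coding 7mer-m8: aaccacaaggcagacatcAGCTCCTggttc
DUSP5, coding 7mer-m8: actttggcttcatgggccAGCTCCTgcagt

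Promoter windows from 250 bases before to 50 bases after the gene start were found in RefSeq (GRCh38.p14) for 6 of the 10 genes, DUSP1, DUSP6, FOS, JUN, EGR1 and ATF3. They were searched on both strands for the CArG box bound by serum response factor, the AP-1 site TGACTCA and the cAMP response element TGACGTCA, which do not overlap one another. EGR1 held 2 CArG boxes, the one nearer the start at chr5:138465396-138465405, whereas 1.29% of 35116 promoters held such a box. DUSP1 held 1 cAMP response element at chr5:172771313-172771320, a motif present in 1.85% of the promoters. Neither these motifs nor TGACTCA (4.95% of promoters) were in the windows of DUSP6, FOS, JUN or ATF3. The EGR1 and DUSP1 motifs are shown in capitals because these were the matches found.
EGR1, CArG box: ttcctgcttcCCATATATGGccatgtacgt
DUSP1, cAMP response element: gcagggcgggTGACGTCAccgccccgtc

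The estimated depth was 19.4–31.7 M gene-assigned reads for the MCF10A libraries and 23.8–40.4 M for the RPE-1 libraries. A floor of 3 reads corresponded to at most 4.40 normalised reads, and all values of the 10 genes were above it. Counting error weighs most on the genes with the fewest reads, FOS in RPE-1 and ATF3 in siNT. MCF10A libraries passed the filter for all 8 of the basal epithelial markers examined, and RPE-1 libraries for 2 of those 8. Of 12 pigment epithelial markers, 10 were listed and 8 passed in RPE-1, and 8 were listed and passed in MCF10A. OTX2, a transcription factor of this epithelium, was at a mean of 951 in RPE-1 siNT and not listed in MCF10A, and MITF was at 1908 and 184. KRT8, KRT18 and VIM were also higher in RPE-1 siNT. BEST1 and LRAT stood the other way, at 165.5 and 3.47 in RPE-1 siNT and at 795 and 1212 in MCF10A siNT. RPE65, a gene of mature pigment epithelium, and the pigment gene TYR were not listed in RPE-1, whereas RPE65 was at 17.8 in MCF10A siNT. The library of RPE-1 siNT replicate 3 stood apart in the pigment genes TYRP1 and PMEL (560.6 and 544.4 normalised reads, against at most 12.2 and 13.8 in the other 8 RPE-1 libraries). Ribosomal RNA made up 15.1% of RPE-1 miR-28 replicate 1 and 4.23–7.20% of the other RPE-1 libraries. The part of either library in the results was tested only by leaving it out. The 9 and 8 genes called against siNT in RPE-1 remained 9 and 8 in number without siNT replicate 3, and the miR-28 count was 7 without miR-28 replicate 1.

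In siNT cells the members' levels, as normalised reads per kilobase of transcript, differed widely within each line. In MCF10A, DUSP1 was highest at 2358 ± 431 (SD, n = 3), followed by IER3 at 1253 ± 92.3, DUSP6 at 1110 ± 47.1, DUSP4 at 939 ± 127, EGR1 at 765 ± 119 and FOS at 630 ± 81.9. The lowest levels were those of FOSL1 (398 ± 14.1), JUN (212 ± 19.3), DUSP5 (144 ± 16.5) and ATF3 (39.2 ± 13.3). Neighbours in this order overlapped only for DUSP4 with EGR1 and EGR1 with FOS. In RPE-1, IER3 was highest at 2601 ± 243 normalised reads per kilobase, followed by FOSL1 at 716 ± 159, DUSP1 at 693 ± 95.7, JUN at 637 ± 109, EGR1 at 437 ± 222, DUSP4 at 193 ± 50.8 and DUSP5 at 160 ± 21.6. DUSP6 (57.0 ± 9.61), ATF3 (38.4 ± 3.31) and FOS (18.8 ± 3.95) were lowest. From FOSL1 down to DUSP5, each gene in RPE-1 overlapped its neighbour. The 2 tables were normalised separately, so levels were not tested between lines.

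Changes were called by limma on log2(value + 1) with a Benjamini-Hochberg adjusted p below 0.05 over all genes tested. With miR-28, 9 of the 10 genes passed in RPE-1, where 46.8% of 14527 genes did, and 7 were higher and 2 lower. In MCF10A, 3 passed with miR-28, where 22.7% of 14726 genes did, 1 higher and 2 lower. With miR-708, 8 passed in RPE-1 (62.1% of all genes), 6 higher and 2 lower, and 6 passed in MCF10A (32.8%), 3 in each direction. DUSP1, whose contrast between the lines was known when the genes were chosen, is in these counts, and of the other 9 genes 8 and 7 passed in RPE-1 and 3 and 6 in MCF10A with miR-28 and miR-708. Over all 10 genes, DUSP1 included, the median log2 fold change was 0.87 and 0.95 in RPE-1 for miR-28 and miR-708, and 0.01 and 0.08 in MCF10A. The median over all genes tested was between −0.0047 and 0.0061 in these comparisons. Among all genes, 23.3% and 30.9% were called higher in RPE-1 with miR-28 and miR-708, and 10.7% and 15.5% in MCF10A. The shares called lower were 23.5% and 31.2% in RPE-1 and 12% and 17.3% in MCF10A. The replicate number was also used as a block. That same-numbered libraries are pairs was inferred from correlations in these data, and the labels give only the numbers. With this block, 5 genes passed in MCF10A with miR-28 and 8 with miR-708, where 29.9% and 39.5% of all genes did. Scaling each library to the same total raised the median of all genes by 0.12 and 0.14 in MCF10A and 0.09 and 0.32 in RPE-1 for miR-28 and miR-708. The share of calls that were higher then went from 47.1% to 66.2% and from 47.3% to 67.6% in MCF10A, and from 49.9% to 59.4% and from 49.7% to 71.9% in RPE-1. No called member changed direction under that scaling. In each line the 2 mimic comparisons share the siNT libraries.

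**Figure D1:**
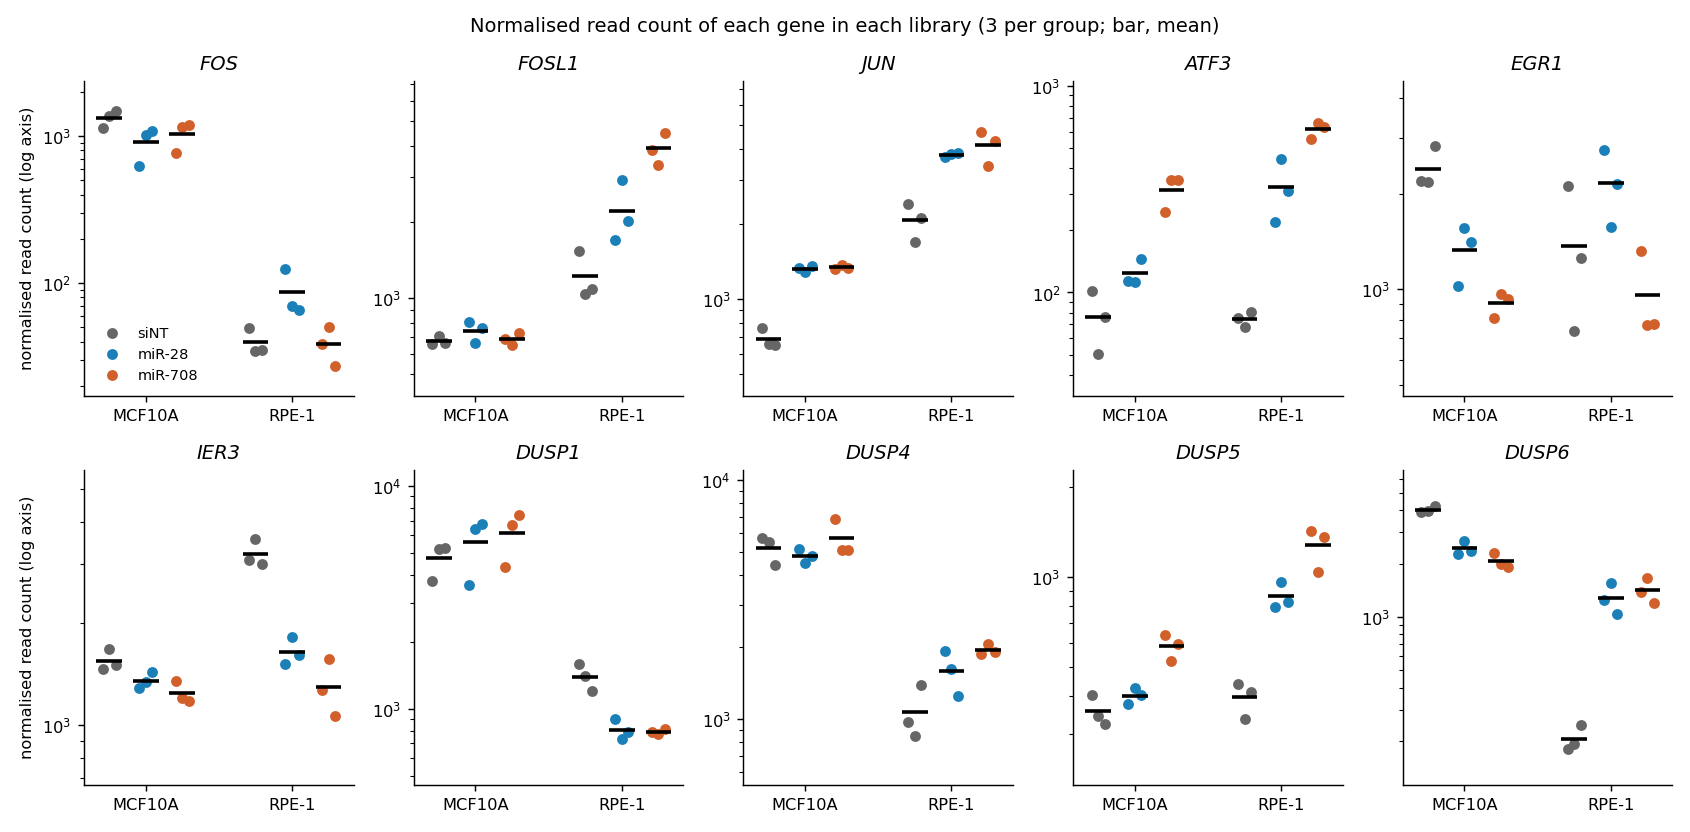
Normalised read count of each of the 10 genes (log axis) in each of the 18 libraries, by cell line and treatment; points are libraries in replicate order and bars are means of 3. DUSP6 lay between 181 and 247 in RPE-1 siNT libraries and between 1038 and 1667 in the libraries of both mimics, but was lower with the mimics in MCF10A.

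JUN, a leucine zipper partner in AP-1, was higher with both mimics in both lines. MCF10A libraries held 764, 661 and 650 normalised reads of JUN in siNT, 1327, 1282 and 1360 with miR-28, and 1318, 1363 and 1335 with miR-708. All mimic libraries were above all siNT libraries, and the log2 fold changes were 0.94 ± 0.10 and 0.96 ± 0.10 (SE; limma, adjusted p = 0.000242 and 6.32e-05). In RPE-1 JUN was at 2410, 1701 and 2113 in siNT, 3715, 3836 and 3842 with miR-28 and 4695, 3417 and 4307 with miR-708. The mimic libraries again lay above siNT without overlap, by 0.89 ± 0.14 and 0.9985 ± 0.14 on the log2 scale (limma, adjusted p = 0.000552 and 0.000125). Bulk libraries such as these cannot tell more cells with a transcript from more of it per cell.

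FOS, the partner of JUN in the classical AP-1 dimer, was abundant in MCF10A and near the bottom of the measured range in RPE-1. In MCF10A it was at 1138, 1361 and 1477 in siNT, 622, 1018 and 1089 with miR-28, and 770, 1150 and 1188 with miR-708. The miR-28 libraries were below all siNT libraries and the miR-708 libraries overlapped them. The log2 fold changes of −0.58 ± 0.22 and −0.37 ± 0.22 did not pass without the block (limma, adjusted p = 0.0793 and 0.215) and did with it (limma, adjusted p = 0.00197 and 0.0168). In RPE-1, FOS was at 49.2, 34.5 and 35.2 in siNT, 125, 70.3 and 65.2 with miR-28, and 38.5, 50.4 and 27.2 with miR-708. It was higher with miR-28, by 1.07 ± 0.31 on the log2 scale (limma, adjusted p = 0.0169). That call was lost without miR-28 replicate 1, the library rich in ribosomal RNA (limma, adjusted p = 0.0580), or without siNT replicate 2 (0.0561). With miR-708 the difference was −0.06 with a 95% interval from −0.75 to 0.63.

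FOSL1, which encodes the FOS-related protein FRA-1, was higher with both mimics in RPE-1. It was at 1530, 1041 and 1083 normalised reads in siNT, 1689, 2931 and 2015 with miR-28, and 3841, 3364 and 4505 with miR-708. The 3 groups did not overlap. The log2 fold changes were 0.84 ± 0.21 and 1.69 ± 0.21 (limma, adjusted p = 0.00685 and 4.69e-05), the latter a 3.23-fold rise. In MCF10A all 9 libraries lay between 655 and 806, and the intervals of the log2 fold change were −0.11 to 0.37 for miR-28 and −0.21 to 0.26 for miR-708.

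ATF3, a repressor or activator at ATF/CRE and AP-1 type sites, rose more than JUN did in RPE-1. Its values there were 75.1, 67.9 and 80.7 in siNT, 220, 443 and 309 with miR-28, and 555, 660 and 632 with miR-708. No group overlapped another, and the rises were 4.14-fold and 8.16-fold (log2 2.05 ± 0.22 and 3.03 ± 0.22, limma, adjusted p = 4.24e-05 and 1.36e-06). In MCF10A ATF3 was at 102, 50.4 and 75.8 in siNT, 114, 113 and 145 with miR-28, and 244, 350 and 350 with miR-708. Here too the 3 groups were in the order siNT, miR-28, miR-708 without overlap. The 4.21-fold rise with miR-708 passed (log2 2.07 ± 0.26, limma, adjusted p = 0.000227). The log2 change of 0.75 ± 0.26 with miR-28 passed only with the block (limma, adjusted p = 0.0612 without and 0.0386 with it), with library size scaling (0.0395) or without siNT replicate 7 (0.0289).

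EGR1, a zinc finger factor induced through ERK, fell in MCF10A. It was at 2200, 2172 and 2830 in siNT, 1023, 1564 and 1409 with miR-28, and 810, 970 and 933 with miR-708. All 3 groups were separate, and the log2 fold changes were −0.86 ± 0.16 and −1.40 ± 0.16 (limma, adjusted p = 0.00414 and 0.000131), 1.82-fold and 2.64-fold lower than siNT. In RPE-1 EGR1 varied widely, at 2117, 737 and 1259 in siNT, 2742, 1571 and 2150 with miR-28, and 1317, 771 and 779 with miR-708. Both mimic groups overlapped siNT, and neither log2 difference passed without the block (0.75, 95% interval −0.03 to 1.52, and −0.44, −1.21 to 0.34). With the replicate block both passed, higher with miR-28 and lower with miR-708 (limma, adjusted p = 0.00389 and 0.0340). Without the block, the miR-28 difference passed without siNT replicate 1 (log2 1.12, limma, adjusted p = 0.0185), and the miR-708 difference without siNT replicate 2 (−0.82, 0.0444).

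IER3, a stress-induced gene linked to cell survival and ERK signalling, was lower with the mimics. Its 3′UTR holds the 7mer-A1 shown above. DUSP4, with a 7mer-m8 in its 3′UTR, was higher in RPE-1, and the part of these sites was not tested. In RPE-1 IER3 was at 3090, 3560 and 3001 in siNT, 1518, 1822 and 1609 with miR-28, and 1269, 1568 and 1065 with miR-708. Every mimic library was well below every siNT library, with log2 fold changes of −0.96 ± 0.14 and −1.32 ± 0.14 (limma, adjusted p = 0.000288 and 1.64e-05). In MCF10A it was at 1461, 1679 and 1511 in siNT, 1284, 1343 and 1432 with miR-28, and 1352, 1200 and 1182 with miR-708. These mimic libraries were also below siNT without overlap, but by less. The log2 change was −0.19 ± 0.10 with miR-28 (limma, adjusted p = 0.173) and −0.32 ± 0.10 with miR-708 (0.0286). The latter call was lost with library size scaling (limma, adjusted p = 0.173) and without siNT replicate 8 or 9 or miR-708 replicate 8 or 9 (0.0626 to 0.107).

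**Figure D2:**
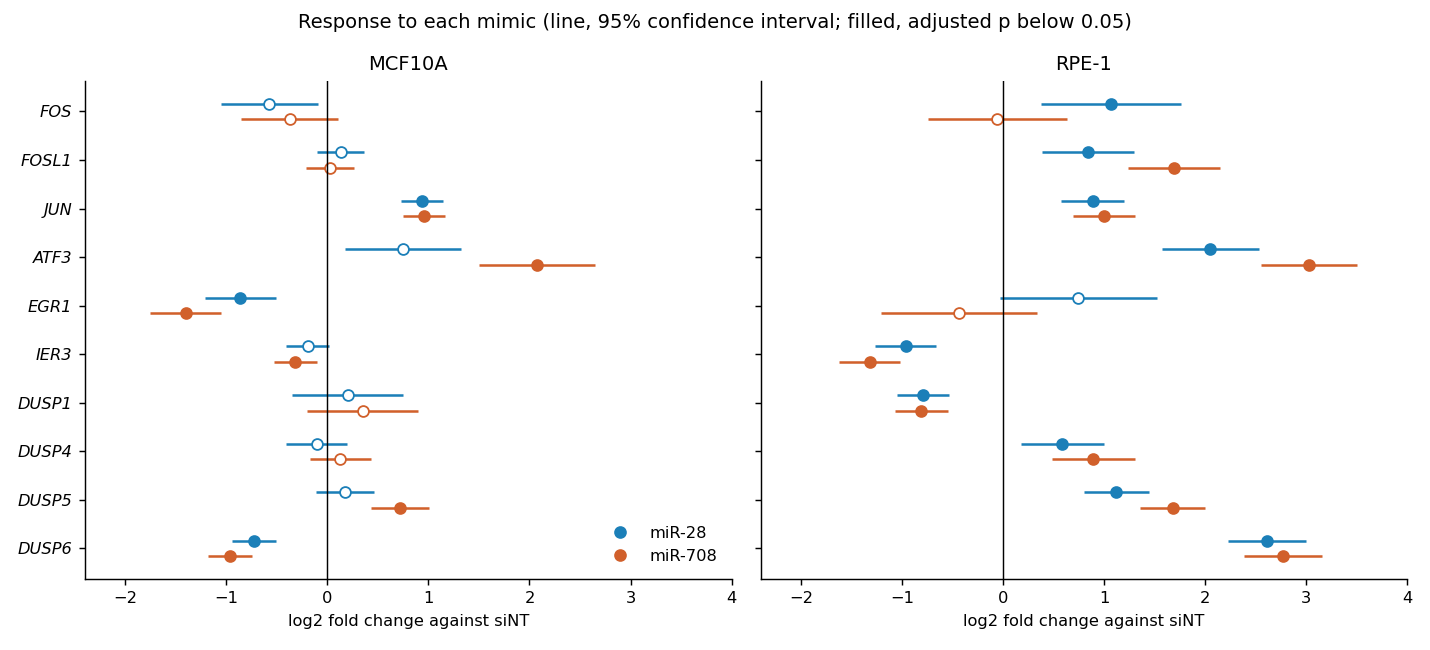
Log2 fold change of each gene against siNT (x axis) in MCF10A and RPE-1 for both mimics, with 95% confidence intervals from limma; filled points have an adjusted p below 0.05. DUSP6 is at −0.72 and −0.97 in MCF10A and at 2.62 and 2.77 in RPE-1, while the JUN points lie between 0.89 and 0.9985 in both lines.

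DUSP6, the cytoplasmic ERK phosphatase, moved in opposite directions in the 2 lines. The MCF10A values were 3896, 3961 and 4219 normalised reads in siNT, 2277, 2695 and 2350 with miR-28, and 2282, 1988 and 1923 with miR-708. Mimic libraries were all below siNT, 1.65-fold and 1.95-fold lower (log2 −0.72 ± 0.10 and −0.97 ± 0.10, limma, adjusted p = 0.000931 and 7.98e-05). In RPE-1 it was at 181, 193 and 247 in siNT, 1244, 1551 and 1038 with miR-28, and 1376, 1667 and 1199 with miR-708. The lowest mimic library was above the highest siNT library, and the rises were 6.13-fold and 6.81-fold (log2 2.62 ± 0.18 and 2.77 ± 0.18, limma, adjusted p = 2.46e-06 and 6.25e-07). Leaving out any 1 library kept both directions and all 4 calls.

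DUSP1, a nuclear phosphatase of JNK, p38 and ERK, was lower in RPE-1. Its contrast between the lines was known when the genes were chosen. Its values and p-values are therefore a description and not an independent test. In RPE-1 DUSP1 was at 1584, 1404 and 1199 in siNT, 901, 730 and 784 with miR-28, and 792, 771 and 813 with miR-708. All 6 mimic libraries were below the lowest siNT library, 1.73-fold and 1.75-fold lower (log2 −0.79 ± 0.12 and −0.81 ± 0.12, limma, adjusted p = 0.000370 and 0.000153). Its MCF10A values were 3744, 5242 and 5254 in siNT, 3612, 6416 and 6739 with miR-28, and 4327, 6658 and 7394 with miR-708. Replicate 7 was lowest in each of these groups, and the groups overlapped. The log2 fold changes were 0.20 (95% interval −0.35 to 0.75) and 0.35 (−0.20 to 0.90). With the block the latter passed (limma, adjusted p = 0.314 without and 0.0144 with it).

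DUSP5, a nuclear phosphatase selective for ERK, was higher with both mimics in RPE-1, at 439, 337 and 414 in siNT, 797, 963 and 825 with miR-28, and 1428, 1042 and 1363 with miR-708. The groups did not overlap, and the rises were 2.18-fold and 3.21-fold (log2 1.12 ± 0.15 and 1.68 ± 0.15, limma, adjusted p = 0.000164 and 4.92e-06). MCF10A cells had values of 402, 344 and 323 in siNT, 377, 425 and 404 with miR-28, and 639, 525 and 598 with miR-708. It was higher with miR-708 (log2 0.72 ± 0.13, limma, adjusted p = 0.00198) and overlapped siNT with miR-28 (0.18, 95% interval −0.11 to 0.47).

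DUSP4, another nuclear phosphatase of ERK and JNK, was higher in RPE-1, at 978, 850 and 1390 in siNT, 1923, 1620 and 1249 with miR-28, and 1867, 2068 and 1915 with miR-708. The miR-708 libraries were above all siNT libraries and 1 miR-28 library was below the highest siNT library. The log2 fold changes were 0.58 ± 0.19 and 0.89 ± 0.19 (limma, adjusted p = 0.0248 and 0.00174). The miR-28 call was lost without miR-28 replicate 1 or 2 or siNT replicate 1 or 2 (limma, adjusted p = 0.0521 to 0.101), without a variance trend (0.0505) and with only the 2 groups in the fit (0.0524). In MCF10A the 9 libraries lay between 4408 and 6914, with intervals of −0.41 to 0.19 for miR-28 and −0.17 to 0.43 for miR-708.

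Between the mimics, 1 of the 10 genes differed in MCF10A, where 1.55% of all genes did, and 5 differed in RPE-1, where 21.2% did. In MCF10A this was ATF3, 2.51-fold higher with miR-708 than with miR-28 (log2 1.33 ± 0.26, limma, adjusted p = 0.0280). That call was lost without a variance trend (limma, adjusted p = 0.0745) and without any miR-28 replicate or miR-708 replicate 8 or 9 (0.0544 to 0.147). In RPE-1, ATF3 (0.98 ± 0.22), FOSL1 (0.85 ± 0.21) and DUSP5 (0.56 ± 0.15) were higher with miR-708 than with miR-28 on the log2 scale. FOS (−1.13 ± 0.31) and EGR1 (−1.18 ± 0.35) were lower (limma, adjusted p from 0.0106 for ATF3 to 0.0361 for EGR1). IER3, at −0.36 ± 0.14, did not pass (limma, adjusted p = 0.0892) but did with the replicate block, which treats same-numbered libraries as pairs (0.0260). With library size scaling, the share of all calls between mimics in RPE-1 that were higher with miR-708 went from 46.5% to 84.8%. Of the 5 members, ATF3 kept its call without any 1 library, and the other 4 calls were lost without some. The count was 2 without miR-28 replicate 1 or 3, 3 without miR-708 replicate 1, and 1 without miR-708 replicate 3. EGR1 was also lost without miR-708 replicate 2 (limma, adjusted p = 0.110), with library size scaling (0.0601) and without a variance trend (0.0750), and IER3 passed without miR-708 replicate 2 (0.0247). DUSP6 and JUN did not pass, with 95% intervals of −0.23 to 0.54 and −0.20 to 0.42 in RPE-1, and DUSP1 was within −0.28 to 0.24. In MCF10A, DUSP6 was at −0.24 (−0.46 to −0.02, limma, adjusted p = 0.275) and JUN at 0.02 (−0.19 to 0.23), whereas EGR1, at −0.54 ± 0.16 (0.146), passed without miR-28 replicate 7 (0.0291).

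The responses were compared between the lines as the log2 fold change in RPE-1 minus that in MCF10A (limma estimates, Benjamini-Hochberg over 13339 genes tested in both lines). Cell line and culture medium differ together here and cannot be told apart. For DUSP1, for the reason given above, the differences of −0.99 ± 0.28 with miR-28 and −1.16 ± 0.28 with miR-708 are given as a description. Of the other 9 genes, 8 differed with miR-28, where 23.4% of all genes did, and 6 with miR-708, where 39.8% did. Library size scaling moved the share of higher calls among all genes from 50.8% to 68.5% with miR-708. DUSP6 differed most, by 3.34 ± 0.20 and 3.73 ± 0.20 (limma, adjusted p = 4.26e-08 and 1.87e-09). DUSP5 responded more in RPE-1 by 0.95 ± 0.20 and 0.96 ± 0.20 (limma, adjusted p = 0.00177 and 0.000568), and FOSL1 by 0.71 ± 0.23 and 1.67 ± 0.23 (0.0360 and 4.05e-05). ATF3 responded more by 1.31 ± 0.34 and 0.95 ± 0.34 (limma, adjusted p = 0.00860 and 0.0294). IER3 fell more in RPE-1, by −0.77 ± 0.17 and −1.003 ± 0.17 (limma, adjusted p = 0.00305 and 0.000117). DUSP4 differed by 0.69 ± 0.23 and 0.76 ± 0.23 (limma, adjusted p = 0.0362 and 0.0127).

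FOS and EGR1 differed between the lines with miR-28, by 1.65 ± 0.38 and 1.61 ± 0.38 (limma, adjusted p = 0.00469 and 0.00808), but not with miR-708, where the 95% intervals were −0.48 to 1.11 for FOS and 0.14 to 1.79 for EGR1 (limma, adjusted p = 0.0589 for EGR1). JUN alone among the 9 did not pass with either mimic, with intervals of −0.41 to 0.30 and −0.31 to 0.40. The weaker of these calls were lost when certain single libraries were left out. The DUSP4 difference with miR-28 was lost without any 1 of 8 libraries, namely MCF10A siNT replicate 7 or 8, MCF10A miR-28 replicate 8 or 9, RPE-1 siNT replicate 1 or 2 and RPE-1 miR-28 replicate 1 or 2 (limma, adjusted p = 0.0545 to 0.122). The FOSL1 difference with miR-28 was lost without MCF10A siNT replicate 8, MCF10A miR-28 replicate 8, RPE-1 siNT replicate 2 or 3 or RPE-1 miR-28 replicate 2 or 3 (0.0534 to 0.116). Both were also lost without a variance trend (limma, adjusted p = 0.0717 for DUSP4 and 0.0686 for FOSL1) and with only the 2 groups in each fit (0.0534 and 0.0530), DUSP4 in a pooled fit of 18 libraries (0.0538) and FOSL1 with library size scaling (0.0550). With miR-708, the ATF3 difference was lost without MCF10A siNT replicate 7 or 9, MCF10A miR-708 replicate 7, RPE-1 siNT replicate 2 or RPE-1 miR-708 replicate 2 or 3 (0.0530 to 0.103), and the DUSP4 difference without RPE-1 siNT replicate 2 (0.0501). The EGR1 difference with miR-708 passed without RPE-1 siNT replicate 1 (log2 1.34, limma, adjusted p = 0.00783), with library size scaling (0.0282) and with only the 2 groups in each fit (0.0355).

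**Figure D3:**
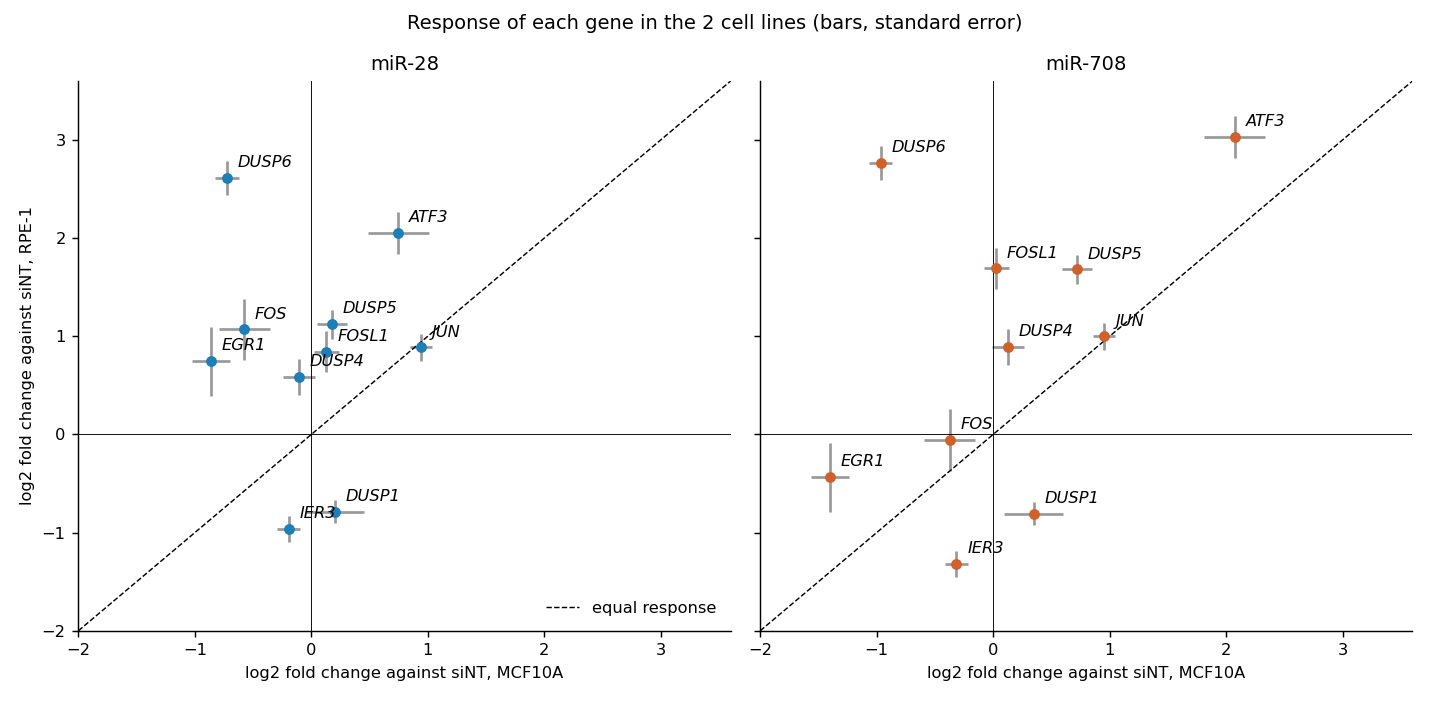
Log2 fold change of each gene against siNT in RPE-1 (y axis) and in MCF10A (x axis) for miR-28 and miR-708, with standard errors from limma; the dashed line marks an equal response. DUSP6 lies farthest above the line, DUSP1 and IER3 lie below it, and JUN lies near it for both mimics.

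The genes differed in how much replicates varied. In MCF10A the residual SD of DUSP1 was 0.41 on the log2 scale, at percentile 79.1 of the 14726 genes tested, and that of FOS was 0.34, at percentile 73.9, against a median of 0.20. ATF3 was between them, at 0.36 and percentile 75.2. Replicate 7 was below its group mean in all 3 groups for DUSP1 and FOS, with deviations from −0.58 to −0.32 for DUSP1 and from −0.51 to −0.21 for FOS. JUN was among the steadiest genes of MCF10A, with an SD of 0.08 at percentile 4.19. In RPE-1 the SD was highest for EGR1, at 0.56 and percentile 92.3, followed by FOS at 0.42 and percentile 85.9. Replicate 1 had the highest EGR1 value in all 3 RPE-1 groups, 0.38 to 0.76 above the group mean.

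**Figure D4:**
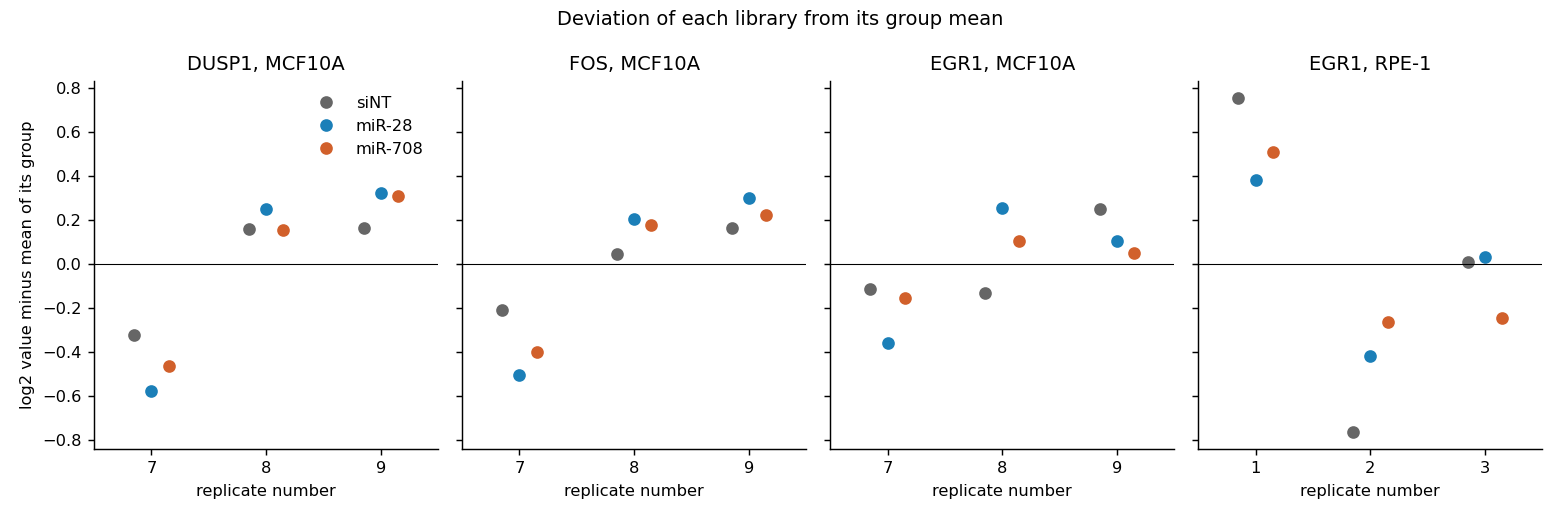
Deviation of each library from the mean of its group (y axis, log2) against replicate number for DUSP1, FOS and EGR1 in MCF10A and EGR1 in RPE-1. Replicate 7 lies below 0 in all 3 MCF10A groups and replicate 1 lies above 0 in all 3 RPE-1 groups.

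The genes most like a member over all 18 libraries were found among 10234 genes with a mean of at least 100 in both lines, by Pearson's r of log2 values centred within each line. For DUSP6 these were ITGA2 (r = 0.97), MAP3K21 (0.96), AP1AR (0.96), WDFY2 (0.96) and FMNL2 (0.95). For DUSP1 they were NECTIN3 (0.93), GBE1 (0.91), CZIB (0.90), ST6GALNAC6 (0.90) and MCAM (0.90). For EGR1 they were MCCC2 (0.87), LTBP1 (0.86), NT5DC1 (0.82), WARS2 (0.82) and NEO1 (0.81). The values share their libraries and treatments, and no test was made.

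Other genes around the MAP kinase pathway were counted from lists by role, which were also chosen with earlier results of these data known. Beside these counts, 23.3% of all genes were called higher and 23.5% lower with miR-28 in RPE-1, and 30.9% and 31.2% with miR-708. In MCF10A the shares were 10.7% higher and 12% lower with miR-28, and 15.5% and 17.3% with miR-708. The median log2 fold change over all genes was between −0.0047 and 0.0061. Of 18 other ERK output and feedback genes, 12 were higher and 2 lower with miR-28 in RPE-1 and 11 higher and 3 lower with miR-708, whereas in MCF10A 3 were higher and 4 lower with miR-28 and 4 in each direction with miR-708. With library size scaling these counts were 14 and 2, 15 and 1, 4 and 3, and 6 and 4. Their median log2 fold change was 0.58 and 0.68 in RPE-1 and −0.11 and 0.12 in MCF10A. Over all genes, library size scaling gave 6675 calls with miR-28 in RPE-1, 59.4% of them higher, and 9452 with miR-708, 71.9% of them higher. In MCF10A it gave 3438 and 5000 calls, 66.2% and 67.6% of them higher. The scaled counts of every list stand beside these shares. In RPE-1 ETV1, an ETS factor downstream of ERK, rose from 483 ± 63.9 normalised reads in siNT to 2810 ± 681 with miR-28 and 3854 ± 758 with miR-708 (SD, n = 3; limma, adjusted p = 5.43e-06 and 7.11e-07). PHLDA1 rose by 1.62 on the log2 scale with each mimic, whereas ERRFI1, the EGFR inhibitor, was at −0.64 and −1.56 and the cytokine gene LIF at −1.08 and −0.77, all of them calls, of which LIF with miR-708 was lost with library size scaling (limma, adjusted p = 0.0986). In MCF10A the ETS factor ETV4 was at −1.08 and −1.43 and the EGFR ligand gene HBEGF at −1.51 and −1.10, all called. LIF (1.15 and 1.07) and SPRED3 (1.22 and 1.28) were called higher there, but these calls were lost when certain single libraries were left out. Those of LIF were lost without siNT replicate 8 or 9, miR-28 replicate 7 or 9 (miR-28) or miR-708 replicate 7 or 8 (miR-708), with adjusted p from 0.0587 to 0.116 (limma), and without a variance trend (0.0747 and 0.0703). Those of SPRED3 were lost without siNT replicate 7, any miR-28 replicate or miR-708 replicate 8 or 9 (limma, adjusted p = 0.0575 to 0.106), and with miR-28 without a variance trend (0.0610).

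Of 6 other MAP kinase phosphatases, 3 of 5 tested were higher and none lower with miR-28 in RPE-1 and 2 were higher with miR-708, against 1 higher and 1 lower and 3 higher and 1 lower of 6 in MCF10A. With library size scaling 4 were higher with miR-708 in RPE-1. The list median was 0.56 and 0.39 in RPE-1 and −0.08 and 0.02 in MCF10A for miR-28 and miR-708 (log2 fold change). DUSP10, a phosphatase of p38 and JNK, rose from 149 ± 22.9 to 847 ± 332 and 1651 ± 226 in RPE-1 (limma, adjusted p = 2.75e-05 and 1.11e-06). In MCF10A it was at 494 ± 94.3, 727 ± 150 and 1017 ± 135, and the miR-708 difference passed (limma, adjusted p = 0.00157), while that of miR-28 did not (0.0504) but did with the replicate block (0.0225), with library size scaling (0.0279) and without miR-28 replicate 7 (0.0137). DUSP8 rose with both mimics in MCF10A (log2 1.64 and 1.69) and with miR-28 in RPE-1 (0.76), and DUSP7 fell in MCF10A (−0.47 and −0.54).

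Of 28 other immediate early transcription factors and responders, 9 of 27 tested were higher and 5 lower with miR-28 in RPE-1, and 9 were higher and 11 lower with miR-708. With library size scaling the latter were 11 higher and 7 lower. In MCF10A, 6 of 25 were higher and 3 lower with miR-28, and 10 were higher and 3 lower with miR-708. The list median was 0.20 and −0.10 in RPE-1 and 0.09 and 0.31 in MCF10A for miR-28 and miR-708 (log2 fold change). KLF4 went from 6.45 ± 3.63 in RPE-1 siNT, near the floor of 3 reads, to 190 ± 153 and 556 ± 152, having passed the filter through the mimic libraries, and the nuclear receptor gene NR4A2 from 29.1 ± 0.51 to 96.4 ± 19.8 and 174 ± 39.4. EGR2 was at 273 ± 115, 105 ± 61.2 and 41.2 ± 29.5 in RPE-1, where miR-708 passed (limma, adjusted p = 0.00138) and miR-28 did not (0.0666) but did without siNT replicate 3 (0.0413), without miR-28 replicate 2 (0.0258) or with only the 2 groups in the fit (0.0335), and SRF, which binds the CArG box, was at −0.65 and −1.67 on the log2 scale, both calls. In MCF10A, MYC fell by 0.74 and 0.95 and EGR3 went from 81.6 ± 23.2 to 26.8 ± 1.28 and 10.8 ± 7.76, where miR-708 passed (limma, adjusted p = 0.00224) and miR-28 did not (0.0816). CCN1 was called higher with miR-708 there (log2 1.47), but not without siNT replicate 7, miR-708 replicate 8 or miR-708 replicate 9 (limma, adjusted p = 0.0972 to 0.102) or a variance trend (0.0684). With the replicate block EGR3 and CCN1 (log2 0.92) passed with miR-28 too (limma, adjusted p = 0.0439 and 0.000383). EGR3 also passed with miR-28 with a pseudocount of 5 (0.0309) and with only the 2 groups in the fit (0.00722), and CCN1 without miR-28 replicate 7 (0.0293). KLF2, which was at or near the floor in siNT (2.16 ± 1.29) and at 16.1 ± 8.59 with miR-708, passed the filter through the mimic libraries, and without it the miR-708 count was 9 higher of 24.

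Of 27 genes of the MAP kinase cascade itself, 6 were higher and 10 lower with miR-28 in RPE-1 and 8 higher and 11 lower with miR-708, or 8 of each and 13 higher and 4 lower with library size scaling. In MCF10A, 1 was higher and 5 lower with miR-28 and 2 higher and 4 lower with miR-708, or 3 of each and 6 higher and 4 lower with that scaling. The share of higher calls over all genes also rose with that scaling, from 49.7% to 71.9% with miR-708 in RPE-1. The list median was −0.07 and −0.04 in RPE-1 and −0.09 and −0.01 in MCF10A for miR-28 and miR-708 (log2 fold change). NRAS fell in both lines, with log2 fold changes of −0.78 for each mimic in MCF10A and of −1.285 and −1.296 in RPE-1 (limma, adjusted p from 5.29e-06 to 0.00337). MAPK13 was higher in both lines (0.76 and 0.69 in MCF10A, 0.90 and 1.86 in RPE-1), MAPK3, which encodes ERK1, fell by 0.83 and 1.07 in RPE-1, and MAP2K6 was called higher there with miR-28 (1.12), though not without siNT replicate 1 or 2 or miR-28 replicate 1 or 3 (limma, adjusted p = 0.0589 to 0.115). With miR-708 it was at 0.68 (0.141) and passed with library size scaling (0.0416) and without miR-708 replicate 3 (0.0393). In MCF10A RPS6KA1 fell by 0.53 and 0.66, and HRAS was called higher with miR-708 (0.48), though not without siNT replicate 7 or 9 or miR-708 replicate 9 (limma, adjusted p = 0.0692 to 0.0867). With miR-28 HRAS (0.38, 0.0755) passed with the replicate block (0.0393) and with library size scaling (0.0291).

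The last list held 14 genes of the ATF, BATF, JDP, CREB and MAF families. Of 13 tested in RPE-1, 7 were higher and 1 lower with miR-28 and 8 were higher and 3 lower with miR-708. Of 12 tested in MCF10A, 2 were higher and 3 lower with miR-28 and 4 were higher and 2 lower with miR-708. With library size scaling the MCF10A counts were 3 and 2, and 4 and 1. The list median was 0.45 and 0.35 in RPE-1 and 0.03 and −0.07 in MCF10A for miR-28 and miR-708 (log2 fold change). BATF2 went from 3.82 ± 2.57 normalised reads in RPE-1 siNT, near the floor of 3 reads, to 455 ± 470 and 678 ± 226, and in MCF10A from 4.06 ± 3.83 to 9.33 ± 5.59 and 191 ± 53.2. It was under 10 in every siNT library and passed the filter through the mimic libraries, and without it the counts were 6 and 7 higher in RPE-1 and 2 and 3 higher in MCF10A. ATF4 fell with both mimics in MCF10A (−1.05 and −0.89). JDP2 was called lower there (−0.79 and −0.61), but not without siNT replicate 7 or 9 or miR-28 replicate 7 (miR-28) or without siNT replicate 7 or 9 or miR-708 replicate 7 or 8 (miR-708), with adjusted p from 0.0562 to 0.142 (limma), and the miR-708 call was also lost with library size scaling (0.115) and without a variance trend (0.0564). ATF5 was higher in both lines (0.59 and 0.75, 0.80 and 1.38). ATF6 fell with both mimics in RPE-1 (−0.45 and −0.57). MAFK was called lower there with miR-708 (−0.57), though not with library size scaling (limma, adjusted p = 0.277) or without siNT replicate 1 or 2 or miR-708 replicate 1 or 3 (0.0554 to 0.0886), and with miR-28 (−0.37, 0.122) it passed without siNT replicate 3 (0.0249).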

How the data were processed

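PolyA+ RNAseq of MCF10A and hTERT RPE-1 cells was examined in 3 libraries per group, labelled as biological replicates. The authors aligned trimmed reads to hg38 with HISAT2 2.1.0 and estimated RefSeq transcript abundance in Partek by expectation maximisation. What they deposited, and what was used here, is an expression signal per gene, namely these estimates scaled within each line by size factors of the median-of-ratios kind. Between 79.8% and 83.7% of low values lay within 0.02 of a whole number of steps, which gave the depth but not whole reads, so no count model was used. The authors' own comparisons (p-values, ratios and fold changes) were left out.

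Values were tested on log2(value + 1) with limma 3.58.1 in R 4.3.3 where 3 or more libraries of a line reached 10, using 3 group means, a variance trend and Benjamini-Hochberg adjustment. Line differences used Welch–Satterthwaite degrees of freedom. The code was tested on simulated data. Deviations of same-numbered libraries from their group means correlated above 0.1 in every pair for either mimic against siNT in MCF10A (r = 0.11 to 0.30) and for miR-708 against miR-28 in RPE-1 (0.13 to 0.28), and not in the other comparisons. For replicate 9 of miR-28 and siNT in MCF10A, r was 0.1111, against a highest value of 0.1098 between different numbers. The authors' methods name no block.

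The 10 genes, the gene lists and the motifs were chosen with earlier results of these data known. From each list, and in each line, the 2 genes with the highest and the 2 with the lowest mean response among those called with either mimic were named. Alternatives were pseudocounts of 0.5 and 5, no filter, library size scaling, no variance trend, a replicate block, only the 2 groups compared, a pooled fit of 18 libraries, and leaving out each library in turn. Counts without DUSP1, and without list genes under 10 in every siNT library, were added after seeing the data.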

Additional observations from a re-analysis of the deposited data

Results flagged for a closer look

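The responses to a mimic differed between the 2 cell lines in the test of the difference itself (RPE-1 minus MCF10A, log2, limma estimates adjusted over 13339 genes) for these genes. With miR-28 the differences were 3.34 for DUSP6, 1.65 for FOS, 1.61 for EGR1, 1.31 for ATF3, 0.95 for DUSP5, 0.71 for FOSL1, 0.69 for DUSP4 and −0.77 for IER3. With miR-708 they were 3.73 for DUSP6, 1.67 for FOSL1, 0.96 for DUSP5, 0.95 for ATF3, 0.76 for DUSP4 and −1.003 for IER3. DUSP6 was called in opposite directions in the 2 lines with both mimics. With the replicate block in MCF10A, opposite calls also came for FOS with miR-28 (lower in MCF10A, higher in RPE-1). With the block in RPE-1, they came for EGR1 with miR-28 (lower in MCF10A, higher in RPE-1). DUSP1 with miR-708 was higher in MCF10A with the block and lower in RPE-1. Its contrast between the lines was known when the genes were chosen, so this is a description and not a finding. Groups of 3 libraries are too small for a test of single outlying values.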

How the results depend on the processing

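Of 1140 alternatives for single members, 1041 kept direction and side of the threshold, 61 lost a call, 21 gained one and 17 changed sign, all of the latter in differences that were not called. For the named genes of the lists, 897 of 962 kept both, 47 lost and 18 gained a call. Of 118 alternatives for counts of called members, 106 stayed within 1.5 times. The count for miR-28 in MCF10A was 5 with the replicate block against 3. The count for miR-708 against miR-28 in MCF10A was 2 with library size scaling, 0 without a variance trend, 3 with the replicate block and 0 to 1 with single libraries left out, being 0 without miR-28 replicate 8 or 9 or miR-708 replicate 8 or 9. For miR-708 against miR-28 in RPE-1, leaving out single libraries gave 1 to 5. The causes were not tested.

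Library size scaling turned the log2 value to 0.0044 for DUSP4 with miR-28 in MCF10A, to 0.25 for FOS with miR-708 in RPE-1 and to 0.21 for DUSP1 between mimics in RPE-1. Leaving out single libraries gave −0.0161 to 0.20 for DUSP4, −0.0101 to 0.0630 for FOSL1 (both miR-708 in MCF10A) and −0.27 to 0.17 for FOS (miR-708 in RPE-1). Between mimics it gave −0.14 to 0.38 for DUSP1, −0.0495 to 0.40 for FOS and −0.00575 to 0.0369 for JUN in MCF10A, and −0.0866 to 0.0651 for DUSP1 in RPE-1. Between lines JUN ran from −0.19 to 0.0633 with miR-28 and from −0.0928 to 0.18 with miR-708.

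The replicate block also added calls in comparisons where same-numbered libraries did not correlate above 0.1 in every pair. These were EGR1 in RPE-1 with miR-28 and miR-708 (limma, adjusted p = 0.00389 and 0.0340), DUSP5 and EGR1 between mimics in MCF10A (0.0388 and 0.0231) and EGR1 between lines with miR-708 (0.000639). Same-numbered libraries still correlated best with each other in RPE-1 for either mimic against siNT, a hint from the data and not the design, whereas replicate 8 did not between mimics in MCF10A. Apart from these and those given with the results, the block changed no member's call. Over all genes it raised the share called between mimics in MCF10A from 1.55% to 4.37%. Against siNT, whether FOS and, with miR-708, DUSP1 passed in MCF10A and EGR1 in RPE-1 depended on the block.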
